A study of Homo sapiens with 12 samples.

Results

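The expression of 8 kinase genes that act downstream of integrin receptors, namely PRKCD, SRC, PTK2, ILK, PIK3CA, AKT1, AKT2 and MAPK3, was examined in SNU308, a human gallbladder cancer cell line. The genes were chosen by name, because the study followed PRKCD, AKT and ERK signalling after loss of the adhesion molecule CEACAM6. No rule on their values was used, but earlier results of these data were known when they were chosen. They are 8 of the 60617 genes quantified, and all 8 passed the filter on low counts that left 17620 genes for testing. RNA-seq was performed on 12 samples in 3 groups of 4: cells given a non-targeting control siRNA (NTC), labelled as WT, and cells given siCEACAM6#2 or siCEACAM6#3, both labelled as CEACAM6 knockdown. All samples were cells of a single line that received 25 nM siRNA and were harvested at day 3. The knockdown was transient (with Oligofectamine per the labels and RNAiMAX per the methods), and the design text speaks of 4 separate experiments. RNA-seq measures the abundance of the kinase transcripts and not the phosphorylation or the activity of the kinases.

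Integrins are cell surface receptors that bind extracellular matrix and have no enzymatic activity of their own. When they cluster, focal adhesion kinase (encoded by PTK2) and SRC form an active pair at the membrane, and ILK, a pseudokinase, links the integrin tail to actin as part of the IPP complex with PINCH and parvin. From there the signal reaches phosphoinositide 3-kinase, whose catalytic alpha subunit is PIK3CA, the survival kinases AKT1 and AKT2, and the RAS to ERK cascade, of which ERK1 (MAPK3) is an end kinase. PRKCD encodes protein kinase C delta, a diacylglycerol-dependent kinase involved in adhesion and apoptosis. These kinases are switched on and off mainly by phosphorylation and by recruitment to the membrane.

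Neither siRNA changed the transcript level of any of the 8 kinase genes by a detectable amount. In limma-voom with Benjamini-Hochberg (BH) adjustment over all tested genes, no member passed the threshold of 0.05 after siCEACAM6#2, where 1.25% of all tested genes did. None passed with siCEACAM6#3, where 0.0681% of all genes did, or in the average of both siRNAs, where 0.227% did. None differed between the siRNAs, a comparison that called 1.47% of all genes. At an unadjusted p under 0.05 limma-voom also gave 0 of 8 members in every comparison, against 13.6% of all genes with siCEACAM6#2, 12.5% with siCEACAM6#3 and 13.3% between the siRNAs. The edgeR quasi-likelihood test and DESeq2 each called 0 members as well.

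The libraries were close in depth, with 21799476 to 22059456 estimated counts each. Markers of biliary epithelium were high in every sample, with KRT19 at 3024 to 3609 TPM (a transcript level corrected for length and sequencing depth) and EPCAM at 196 to 261 TPM. The leukocyte marker PTPRC reached at most 0.249 TPM, the fibroblast marker LUM at most 0.0965 TPM and the endothelial marker KDR at most 0.0209 TPM. Of 5 leukocyte, 6 fibroblast and 4 endothelial markers, those that exceeded 1.4 TPM in any sample were CD68, which tumour cells also express, at 28.5 to 61.9 TPM, COL1A1 at up to 3.76 TPM and VWF at up to 2.01 TPM. Mitochondrially encoded genes took 14.3% to 15.3% of the counts in siCEACAM6#3 replicates 2 to 4, and 11.8% to 13.3% in the other 9 samples. In bulk samples such as these, fewer expressing cells and less RNA per cell cannot be told apart.

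The target gene was lowered by both siRNAs. CEACAM6 was at 523, 568, 595 and 618 CPM (counts relative to the TMM-scaled library size) in NTC, at 353, 343, 285 and 328 CPM with siCEACAM6#2 and at 423, 386, 424 and 437 CPM with siCEACAM6#3, so that all 8 knockdown samples lay below every control. The log2 fold change was -0.82 (SE 0.07, limma-voom BH adjusted p = 2.7e-05) with siCEACAM6#2 and -0.46 (SE 0.07, limma-voom BH adjusted p = 0.0151) with siCEACAM6#3. When samples were left out 1 at a time, 4 of 12 fits no longer called CEACAM6 with siCEACAM6#3 (limma-voom BH adjusted p of up to 0.0792), those lacking NTC replicate 2, 3 or 4 or siCEACAM6#3 replicate 3.

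An siRNA can also lower transcripts that pair with the seed of its guide strand, so the sequences of both siRNAs were compared with the kinase transcripts. The target sites in the CEACAM6 3' UTR on chromosome 19 (GRCh38, plus strand, chr19:41771369-41771389 and chr19:41771611-41771631) are shown with the 7 bases that pair with guide positions 2 to 8 in capitals.
siCEACAM6#2: cagccatgcaatgCCAAATAa
siCEACAM6#3: ctcctaatagtcaTACTAGTa
The annotated 3' UTRs of PRKCD and AKT2 each hold 1 copy of the siCEACAM6#2 seed site, shown here as the 21 bases in the same register.
PRKCD, chr3:53192691-53192711, plus strand: gtctaaataaacaCCAAATAg
AKT2, chr19:40231101-40231121, minus strand: taataaaatcttaCCAAATAa
Over the whole window, the 7 seed bases included, 10 of 21 bases are identical to the siRNA target in PRKCD and 11 of 21 in AKT2. The other 6 members have no siCEACAM6#2 seed site in the 3' UTR, and none of the 8 has a siCEACAM6#3 seed site. Among the 13748 tested genes with an annotated 3' UTR, 15.6% hold the letters CCAAATA and 6.63% hold TACTAGT when read along the transcript. Among 3' UTRs within 20% of the same length, 3.79% hold CCAAATA for PRKCD (451 bases) and 28.8% for AKT2 (3555 bases). The longest stretch that either 21-base target shares with any annotated transcript of a member is 9 bases, in PRKCD, AKT1 and AKT2. A match of letters is a description and does not show that a site is used.

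The 8 genes spanned a 16.1-fold range of levels in the control cells. AKT1 was the most abundant, at 104 ± 1.9 TPM (SD, n = 4), above 93.4% of all tested genes. AKT2 followed at 91.8 ± 4.9 TPM, MAPK3 at 88.7 ± 5.4 TPM and PTK2 at 70.9 ± 1.8 TPM. PRKCD was at 33.1 ± 1.7 TPM, ILK at 28.6 ± 2.1 TPM and SRC at 22.4 ± 1.4 TPM. PIK3CA was the least abundant, at 6.49 ± 1.24 TPM, yet above 44.8% of the tested genes. Of the 7 neighbouring pairs in this order, AKT2 and MAPK3 overlapped in their NTC samples and the other 6 pairs did not overlap.

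**Figure D1:**
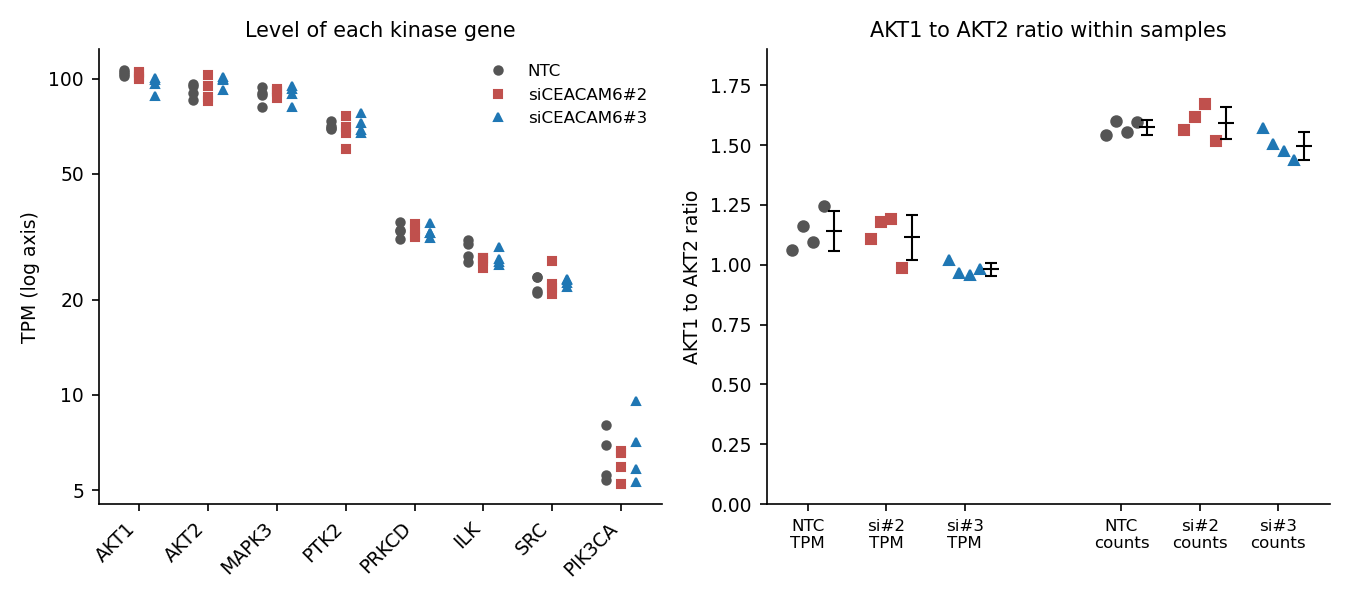
Levels of the 8 kinase genes and the AKT1 to AKT2 ratio. Left, TPM of every sample on a log axis, with genes in the order of their NTC mean, from AKT1 at 104 TPM to PIK3CA at 6.49 TPM. Right, the ratio of AKT1 to AKT2 in every sample, from TPM and from estimated counts, with bars for the mean and SD of 4 samples. The siCEACAM6#3 samples lie below the NTC samples in TPM and overlap with them in counts.

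PRKCD was the member of most direct interest, as the study examined its protein beside CEACAM6 and the integrins. The gene lies on chromosome 3 at 53156009 to 53192717 (GRCh38, plus strand). Its transcript was at 61.7, 61.4, 67.8 and 68.5 CPM in NTC, at 64.4, 68.1, 63.5 and 61.7 CPM with siCEACAM6#2 and at 60.7, 66.6, 64.8 and 71.2 CPM with siCEACAM6#3. The 3 groups overlapped throughout, and the highest and the lowest sample of all 12 were both siCEACAM6#3 samples. The log2 fold change of PRKCD was -0.0092 (SE 0.06) with siCEACAM6#2 and 0.02 (SE 0.06) with siCEACAM6#3, and the limma-voom BH adjusted p was 0.972 and 0.922. The 95% interval ran from -9.03% to 8.53% relative to NTC with siCEACAM6#2 and from -7.17% to 10.7% with siCEACAM6#3. PRKCD carries the siCEACAM6#2 seed site and showed no detectable change with that siRNA. The site starts at base 438 of the 451 bases of the annotated 3' UTR. Whether the PRKCD transcripts of these cells include it was not tested.

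For the kinases at the adhesion site itself the groups overlapped as well. SRC, on chromosome 20, was at 58.5, 61.6, 68.9 and 67.3 CPM in NTC, at 62, 63.7, 65.8 and 69.4 CPM with siCEACAM6#2 and at 62.7, 67.4, 67.8 and 66.9 CPM with siCEACAM6#3. The NTC samples of SRC spanned a wider range than those of siCEACAM6#3 and enclosed all 4 of them. PTK2, on chromosome 8, was at 149, 157, 156 and 161 CPM in NTC, at 143, 167, 166 and 158 CPM with siCEACAM6#2 and at 146, 183, 170 and 166 CPM with siCEACAM6#3. For PTK2, 3 siCEACAM6#3 samples exceeded every NTC sample and replicate 1 fell below all of them. Its log2 fold change with siCEACAM6#3 was 0.09 (SE 0.07, limma-voom BH adjusted p = 0.615), with a 95% interval from -3.57% to 17%.

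ILK, on chromosome 11, had the lowest count after PIK3CA and the widest intervals of the 8. It was at 31.6, 32.7, 38.8 and 37 CPM in NTC, at 31.6, 34.7, 33.2 and 33.3 CPM with siCEACAM6#2 and at 30.6, 33.6, 34.7 and 39.1 CPM with siCEACAM6#3. The siCEACAM6#2 samples of ILK all lay within the range of NTC. ILK had a log2 fold change of -0.07 (SE 0.08) with siCEACAM6#2, with a limma-voom BH adjusted p of 0.764, and its 95% interval from -0.24 to 0.10 was the one that reached furthest below 0 among the members. Exons of ILK overlap those of TAF10 on the opposite strand. The labels describe paired-end, strand-specific reads and the methods single-end reads with no mention of strand. Whether the quantification used strand is not stated, so reads of the overlap are uncertain. The same holds for PIK3CA, whose exons overlap those of KCNMB3 on the opposite strand. It also holds for AKT1, whose exons overlap those of an unnamed gene on the opposite strand.

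PIK3CA, on chromosome 3, encodes the catalytic subunit that makes the lipid signal for AKT. It was at 30, 31.9, 29.4 and 29.3 CPM in NTC, at 29.4, 29.4, 31.1 and 30.5 CPM with siCEACAM6#2 and at 32.2, 36.3, 32.9 and 28.2 CPM with siCEACAM6#3. Of the siCEACAM6#3 samples, 3 were above every NTC sample and replicate 4 was below all of them. PIK3CA had a log2 fold change of 0.10 (SE 0.07, limma-voom BH adjusted p = 0.581) with siCEACAM6#3, the largest of the 8, and -0.0025 with siCEACAM6#2. Leaving out siCEACAM6#3 replicate 4 moved the highest value among the members to 0.16, with a lowest limma-voom BH adjusted p of 0.206. Between the siRNAs PIK3CA differed by 0.10 (SE 0.07, limma-voom BH adjusted p = 0.577). Of the 31-base words in its canonical transcript, 3.33% also occur in transcripts of another annotated gene, so part of its reads could be shared.

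AKT1, on chromosome 14, and AKT2, on chromosome 19, carry the survival signal. AKT1 was at 203, 205, 212 and 208 CPM in NTC, at 208, 206, 210 and 199 CPM with siCEACAM6#2 and at 197, 205, 185 and 209 CPM with siCEACAM6#3. AKT2 was at 132, 128, 137 and 130 CPM in NTC, at 133, 127, 126 and 131 CPM with siCEACAM6#2 and at 126, 136, 125 and 145 CPM with siCEACAM6#3. For both genes the siCEACAM6#3 samples were spread more widely than the NTC samples and overlapped with them. The log2 fold change with siCEACAM6#3 was -0.06 (SE 0.05) for AKT1 and 0.01 (SE 0.05) for AKT2, with limma-voom BH adjusted p of 0.631 and 0.944. With siCEACAM6#2 it was -0.01 (SE 0.05) and -0.03 (SE 0.05), with limma-voom BH adjusted p of 0.954 and 0.892. AKT2, the other member with a siCEACAM6#2 seed site, had a 95% interval from -9.19% to 6.14% with that siRNA.

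The balance of AKT1 to AKT2 depended on the scale. In TPM, AKT1 was at 102, 105, 104 and 107 in NTC and at 101, 96.4, 88.5 and 99.2 with siCEACAM6#3, so that these 2 groups did not overlap. On the TPM scale this was the case for 1 of the 8 members and for 5.9% of all tested genes, while 0 members stood apart with siCEACAM6#2 (8.02% of all genes) or between the siRNAs (5.49%). The log2 fold change of AKT1 on log2(TPM + 1) was -0.12, with a limma BH adjusted p of 0.342. The AKT1 to AKT2 ratio of TPM was 1.06, 1.16, 1.10 and 1.25 in NTC, 1.11, 1.18, 1.19 and 0.985 with siCEACAM6#2 and 1.02, 0.965, 0.958 and 0.982 with siCEACAM6#3. All siCEACAM6#3 samples had a lower ratio than all NTC samples, with a mean log2 difference of -0.22. A two-sided exact permutation test gave p = 0.0286, the smallest value that 4 samples against 4 allow, and 0.257 after Benjamini-Hochberg adjustment over 9 tests. From estimated counts the difference was smaller, at -0.07, with p = 0.0857 in the same exact test and overlapping groups (1.54 to 1.60 in NTC and 1.44 to 1.57 with siCEACAM6#3). TPM divides by the estimated length of the transcripts in each sample and counts do not. Of the 31-base words in the canonical transcripts, 0.137% of AKT1 and 1.59% of AKT2 also occur in transcripts of other genes.

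MAPK3, on chromosome 16, encodes ERK1 and stands at the end of the cascade. It was at 97, 93.5, 110 and 109 CPM in NTC, at 105, 110, 108 and 98.9 CPM with siCEACAM6#2 and at 94.1, 113, 103 and 117 CPM with siCEACAM6#3. The groups overlapped, and the lowest sample belonged to NTC. MAPK3 had a log2 fold change of 0.04 (SE 0.07) with siCEACAM6#2 and 0.06 (SE 0.07) with siCEACAM6#3, with limma-voom BH adjusted p of 0.853 and 0.785. The ratio of PIK3CA to PIK3CB in TPM, at 0.346 in NTC, was 0.340 with siCEACAM6#2 and 0.345 with siCEACAM6#3 (geometric means, n = 4 each), with two-sided exact permutation p of 0.943 and 0.971.

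**Figure D2:**
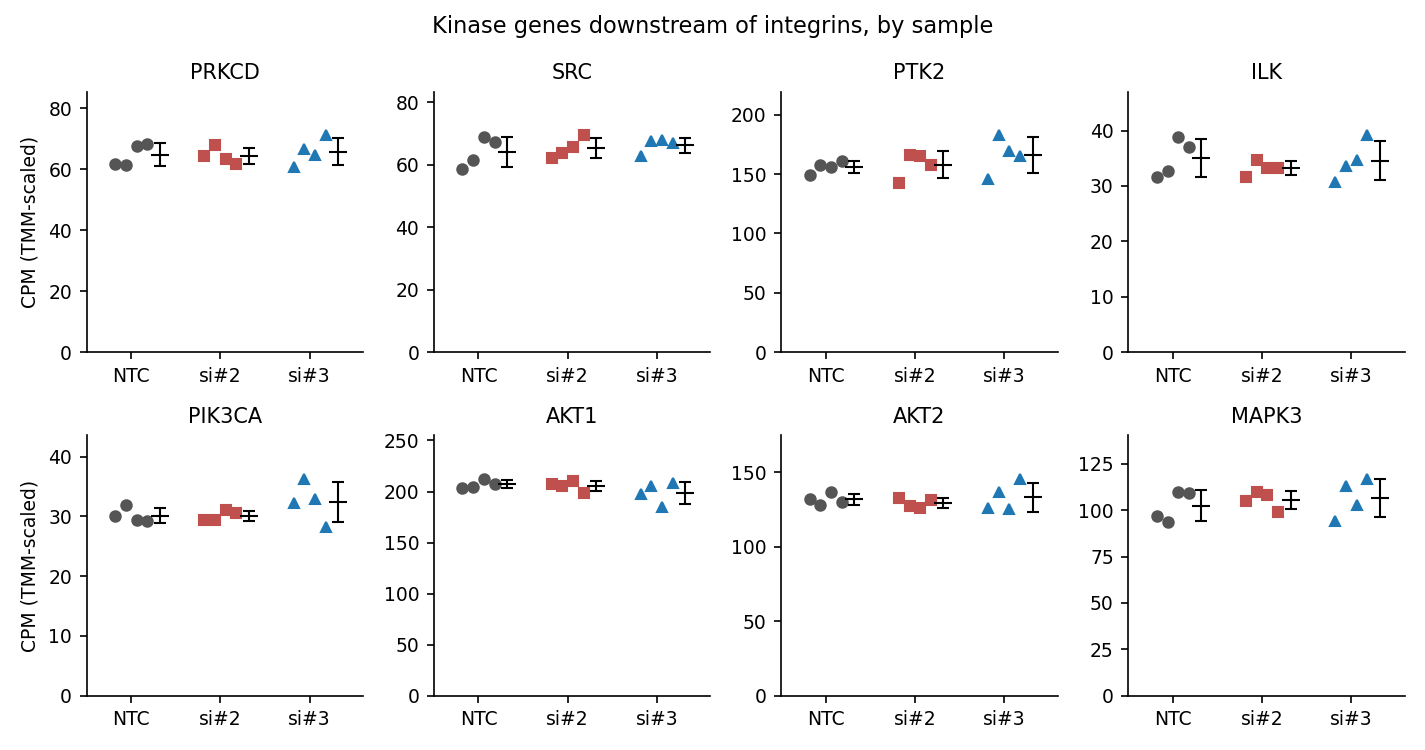
CPM of the 8 kinase genes in each of the 12 samples. Points are samples (NTC, siCEACAM6#2 as si#2, siCEACAM6#3 as si#3), bars give the mean and SD of 4 samples, and every vertical axis starts at 0. The groups of every gene overlap in all 3 comparisons.

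Across the 8 genes, the log2 fold changes lay between -0.07 and 0.04 with siCEACAM6#2 and between -0.06 and 0.10 with siCEACAM6#3. The median size of the change, without regard to sign, was 0.02 with siCEACAM6#2 and 0.05 with siCEACAM6#3, beside 0.10 and 0.10 over all tested genes. With siCEACAM6#2, 60.9% of the tested genes had a larger change than any member, and with siCEACAM6#3 50% did. The members were also measured with less error than most genes, with a median SE of 0.06 against 0.10 over all genes. On the CPM scale no member had groups that did not overlap, which 10.8% of all genes had with siCEACAM6#2, 6.27% with siCEACAM6#3 and 6.69% between the siRNAs. Over all members, the 95% intervals reached from -15.4% to 14.6% with siCEACAM6#2 and from -12.3% to 18.7% with siCEACAM6#3. The sign of 20 of the 32 member values (8 genes in 4 comparisons) changed under at least 1 other way of fitting, so no direction is given for them.

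**Figure D3:**
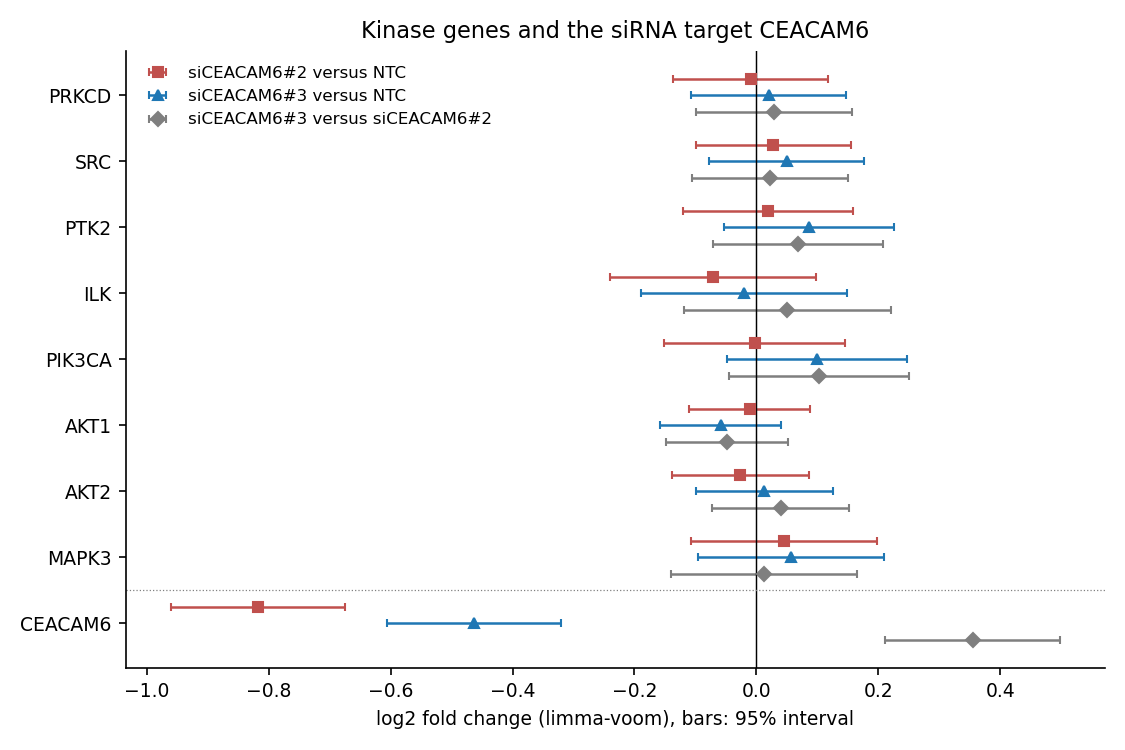
Log2 fold changes of the 8 kinase genes and of the siRNA target CEACAM6, from limma-voom. Points are estimates and bars 95% intervals, for siCEACAM6#2 against NTC, siCEACAM6#3 against NTC and siCEACAM6#3 against siCEACAM6#2. All intervals of the kinase genes include 0, while those of CEACAM6 lie at -0.82 and -0.46 for the siRNAs against NTC.

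Within groups, the members varied by a few percent. The coefficient of variation had a median of 4.9% over the members in NTC, 4% with siCEACAM6#2 and 8.18% with siCEACAM6#3, where the medians over 15015 genes with a mean of at least 1 CPM were 6.18%, 7.39% and 10.3%. Most of the extremes fell in the siCEACAM6#3 group. Its replicate 4 held the highest CPM of 4 members and the lowest of 1, its replicate 2 the highest of 2, and its replicates 1 and 3 the lowest of 2 each. PRKCD and MAPK3 had the most similar profiles over the 12 samples, with a root mean square difference of 0.411 between their standardised log2 CPM values. ILK was nearest to PRKCD (0.519), and AKT2 was nearest to PRKCD (0.880). AKT1 and PIK3CA resembled no other member closely, with 1.01 to the nearest member AKT2 and 1.03 to PTK2. The 3 genes nearest to PRKCD among 15014 others were CIZ1 (0.240), CARD19 (0.280) and FXR2 (0.281), where the median over all genes was 1.44. The canonical transcripts of PIK3CA and PTK2 had the lowest GC content of the 8, at 35.7% and 45.1%, and the other 6 ran from 55% to 61.2%.

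PTK2, SRC, PRKCD and PIK3CA were set beside their closest relatives to see which family member SNU308 cells mainly express. In NTC by TPM, PTK2 made up 88.2% ± 0.6 (SD, n = 4) of the focal adhesion kinase family, and its relative PTK2B the rest. SRC, at 28.1% ± 1.8, was second to YES1 at 36.6% ± 1.9 among 8 Src family genes, followed by LYN at 24% and FYN at 8.06%. PRKCD, at 23.4% ± 1.2, was second to PRKCH at 35.8% among 9 protein kinase C genes. PIK3CA made up 22.2% ± 3.4 of the class I catalytic subunits and PIK3CB 63.5% ± 1.7. None of the relatives and partners named here passed the test against NTC with either siRNA, while RSU1 did between the siRNAs. LYN, a Src family kinase, had a log2 fold change of 0.17 (SE 0.05) and 0.11 (SE 0.05) with the 2 siRNAs, with limma-voom BH adjusted p of 0.162 and 0.413. PARVA, the parvin that binds ILK, had values of 0.19 and 0.21 (SE 0.06 each), with limma-voom BH adjusted p of 0.145 and 0.179. PIK3CB differed by 0.20 (SE 0.06) between the siRNAs, with a limma-voom BH adjusted p of 0.128.

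The wider pathway was read from 9 lists of adaptors, regulators and downstream kinases, 132 genes in all, of which 123 were tested. The other 9, among them the leukocyte kinases LCK, BLK and PRKCQ, had at most 11 counts in any sample. With siCEACAM6#2, 2 pathway genes were called lower and 0 higher, 1.63% of those tested against 1.25% of all genes. With siCEACAM6#3 and in the average of both siRNAs limma-voom called 0. Between the siRNAs, 3 were higher and 2 were lower with siCEACAM6#3, 4.07% of those tested against 1.47% of all genes. The median size of the log2 change over the tested pathway genes was 0.06 with each siRNA, beside 0.10 over all tested genes. With siCEACAM6#2 there was 1 call each in the ILK complex and stress kinase lists, and between the siRNAs there were 2 in the list of AKT activators and brakes and 1 in each of 3 other lists. There were none in the protein kinase C, Src, focal adhesion kinase, PI3K or AKT substrate lists in any comparison.

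MAPK9, which encodes the stress-activated kinase JNK2, was the clearest of these. It was at 38.6, 38.9, 40 and 41.1 CPM in NTC, at 30.7, 30, 30.6 and 28.2 CPM with siCEACAM6#2 and at 38.2, 40.7, 39.4 and 39.8 CPM with siCEACAM6#3. All siCEACAM6#2 samples lay below all others, and the NTC and siCEACAM6#3 samples overlapped. MAPK9 fell with siCEACAM6#2, with a log2 fold change of -0.41 (SE 0.05, limma-voom BH adjusted p = 0.00309), a change of -24.7%, and its value with siCEACAM6#3 was -0.0049 (limma-voom BH adjusted p = 0.981). The difference between the siRNAs was 0.40 (SE 0.05, limma-voom BH adjusted p = 0.00189) and was called in all 24 alternative fits. The call against NTC was lost on the 2 TPM scales, with a limma BH adjusted p of up to 0.0609.

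The 3' UTR of MAPK9 on chromosome 5 (3241 bases, minus strand) holds 2 siCEACAM6#2 seed sites and 1 siCEACAM6#3 seed site, which are shown because its level differed between these siRNAs.
MAPK9, siCEACAM6#2 seed, chr5:180235990-180236010: cagtatttaaatgCCAAATAa
MAPK9, siCEACAM6#2 seed, chr5:180236297-180236317: ggagttgatggaaCCAAATAg
MAPK9, siCEACAM6#3 seed, chr5:180236100-180236120: ttgtttcaaattgTACTAGTg
In the first of these, 16 of 21 bases are those of the siCEACAM6#2 target, 12 of them in an unbroken run at the 3' end. The second shares 7 of 21 bases with its siRNA's target and the third 11 of 21. Of 1715 tested genes with a 3' UTR within 20% of this length, 4.08% hold 2 or more copies of CCAAATA. THEM4, described below, also holds 2 copies and showed no detectable change with siCEACAM6#2 against NTC. Its sites share 14 and 11 of 21 bases with the siCEACAM6#2 target. Their unbroken runs at the 3' end are 8 and 0 bases, so they are not like the first MAPK9 site. Whether any of these sites is used was not tested.

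TNS1 encodes tensin 1, which ties the integrin tail to actin. It was at 24, 22.3, 19.7 and 21.1 CPM in NTC, at 17.3, 13.3, 14.9 and 17.4 CPM with siCEACAM6#2 and at 18.6, 19.3, 18.1 and 20.5 CPM with siCEACAM6#3. The siCEACAM6#2 samples lay below both other groups. TNS1 fell with siCEACAM6#2 by 0.47 on the log2 scale (SE 0.09, limma-voom BH adjusted p = 0.0178), and its value with siCEACAM6#3 was -0.18 (limma-voom BH adjusted p = 0.4). The call was lost in 6 of 24 alternative fits, 4 of which each lacked 1 of NTC replicates 1 and 2 and siCEACAM6#2 replicates 2 and 3. Its 3' UTR holds 1 siCEACAM6#2 seed site, and 34.3% of 3' UTRs of like length hold at least 1.

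RSU1, THEM4 and TRIB3 were called between the siRNAs and not against NTC. RSU1, which encodes a partner of the PINCH protein of the ILK complex, was at 29.7 to 33 CPM with siCEACAM6#2 and at 35.3 to 41.3 CPM with siCEACAM6#3, beside 35.5 to 36.8 CPM in NTC. It was higher with siCEACAM6#3 than with siCEACAM6#2 by 0.26 (SE 0.06, limma-voom BH adjusted p = 0.0376), a call that was kept in 9 of 24 alternative fits and, with 1 sample left out, in those without siCEACAM6#3 replicate 1 or 2 (adjusted p otherwise up to 0.136). THEM4, a binding protein and inhibitor of AKT, was at 9.35 to 10.3 CPM with siCEACAM6#2, 11.8 to 12.8 CPM with siCEACAM6#3 and 9.44 to 10.7 CPM in NTC. It was higher with siCEACAM6#3 than with siCEACAM6#2 by 0.34 (SE 0.07, limma-voom BH adjusted p = 0.0296). The call was kept in 13 of 24 alternative fits and lost without any 1 siCEACAM6#2 sample or siCEACAM6#3 replicate 2 or 3 (adjusted p up to 0.103). The 3' UTR of THEM4 (4022 bases) holds 2 siCEACAM6#2 seed sites, and 5.75% of 3' UTRs of like length hold 2 or more. With siCEACAM6#2 against NTC its log2 fold change was -0.01 (limma-voom BH adjusted p = 0.969). TRIB3, a stress-induced pseudokinase that binds AKT, was at 112, 126, 125 and 156 CPM with siCEACAM6#3. It was at 153 to 189 CPM with siCEACAM6#2 and at 148 to 168 CPM in NTC. Against NTC its log2 fold change was 0.07 with siCEACAM6#2 and -0.29 with siCEACAM6#3 (limma-voom BH adjusted p of 0.777 and 0.190). Its difference between the siRNAs was -0.37 (SE 0.09, limma-voom BH adjusted p = 0.0444). This call was kept in 9 of 24 alternative fits, of which 1 left out a sample, siCEACAM6#3 replicate 1. The siRNA groups of TRIB3 overlapped. The 3' UTRs of RSU1 and TRIB3 hold no seed site of either siRNA.

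**Figure D4:**
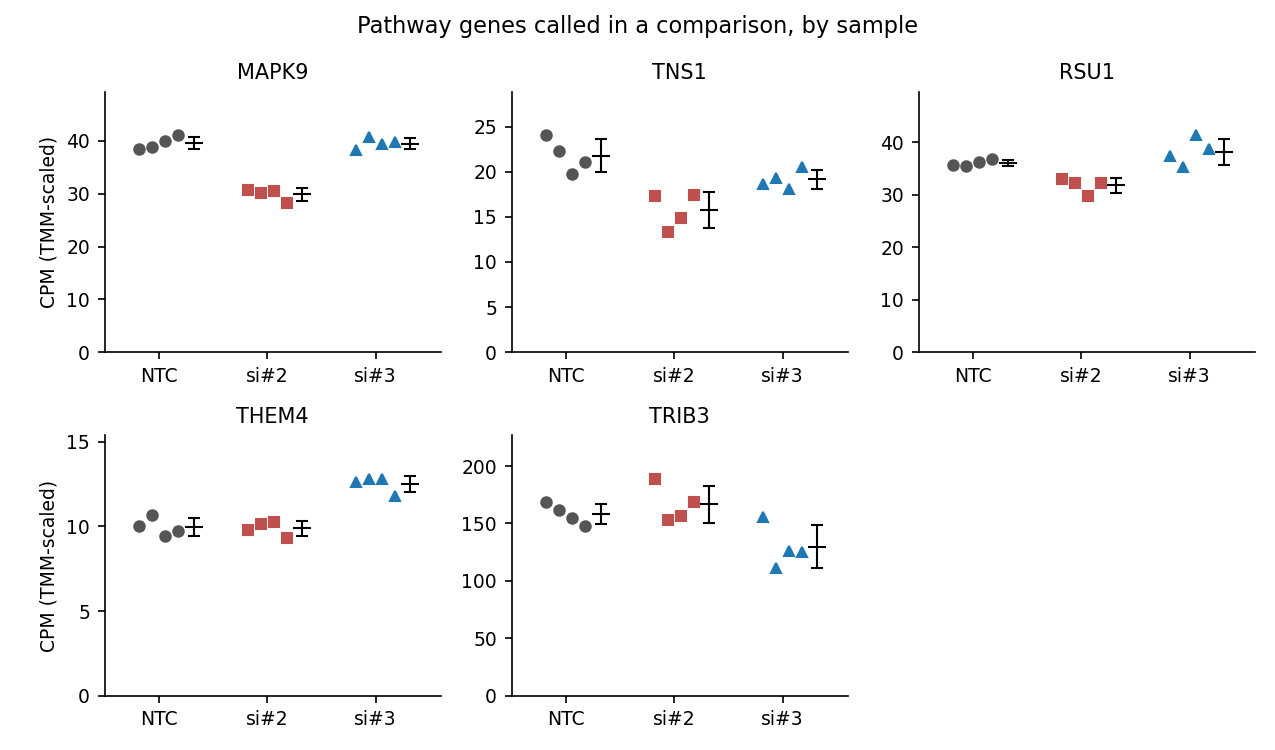
CPM of 5 pathway genes that passed the test in a comparison, in each of the 12 samples. Points are samples, bars give the mean and SD of 4 samples, and every vertical axis starts at 0. MAPK9 and TNS1 are low with siCEACAM6#2, THEM4 is high with siCEACAM6#3, and the siRNA groups of RSU1 lie apart while those of TRIB3 overlap.

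NEDD9, TNS1 and TNS4 had the largest changes of the pathway genes in the average of both siRNAs, at 0.50, -0.33 and 0.31 on the log2 scale, with limma-voom BH adjusted p of 0.158, 0.0804 and 0.378. NEDD9, a docking protein phosphorylated by focal adhesion kinase and SRC, was at 10.9 to 12 CPM in NTC, at 14.8, 22.2, 20.6 and 16.4 CPM with siCEACAM6#2 and at 10.8, 21.5, 14.9 and 13.1 CPM with siCEACAM6#3. Its log2 fold change was 0.66 (SE 0.17, limma-voom BH adjusted p = 0.0668) with siCEACAM6#2 and 0.34 (SE 0.17, limma-voom BH adjusted p = 0.436) with siCEACAM6#3. TNS4, a tensin of epithelial cells, had values of 0.18 and 0.43 (SE 0.17 and 0.16), with limma-voom BH adjusted p of 0.699 and 0.288.

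The integrin receptors upstream, which the study also followed, did not pass the test. ITGB1 was at 348 to 369 CPM in NTC, at 344 to 381 CPM with siCEACAM6#2 and at 382, 437, 420 and 348 CPM with siCEACAM6#3. ITGA2, the collagen-binding alpha subunit, was at 94.6 to 102 CPM in NTC, at 95.8 to 118 CPM with siCEACAM6#2 and at 121, 152, 141 and 110 CPM with siCEACAM6#3, where all 4 samples lay above NTC. The log2 fold change of ITGA2 with siCEACAM6#3 was 0.40 (SE 0.09, limma-voom BH adjusted p = 0.109), and that of ITGB1 was 0.16 (SE 0.06, limma-voom BH adjusted p = 0.325).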

How the data were processed

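RNA was profiled in 4 NTC, 4 siCEACAM6#2 and 4 siCEACAM6#3 samples. The authors trimmed reads with Trim Galore 0.6.4 and quantified them with kallisto (0.4.6 in the submitters' processing notes) against GRCh38.p13. They deposited estimated counts per gene, not scaled, of which 52.8% of the values above 0 were not whole (tolerance 0.001), and TPM per gene, which the authors scaled to length and depth. Kallisto divides reads that match several transcripts by estimation. Counts were rounded, filtered (filterByExpr by group), scaled by TMM and fitted with limma-voom (limma 3.58.1, edgeR 4.0.16, R 4.3.3) in 1 model of 3 groups, with Benjamini-Hochberg adjustment over 17620 genes and a threshold of 0.05. Ratios of TPM had two-sided exact permutation tests. The fit was tested on simulated data. The changes simulated for each siRNA were larger than those measured here for the members, CEACAM6 or the called pathway genes. The simulation therefore does not show how well changes of that smaller size are found. Symbols and 3' UTRs came from GENCODE on GRCh38, with 99.6% of identifiers matched. The siRNA sequences came from the study's supplement, and the reverse complement of each target served as its guide. Seed sites were counted in the 3' UTR of the canonical transcript.

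The kinase genes and pathway lists were chosen with earlier results of these data known. Genes named were the members, CEACAM6, ITGB1, ITGA2, close relatives, pathway genes called in any of 4 contrasts and the 3 with the largest average change at a mean CPM of at least 1. Some genes that met this rule are not reported here, while counts over the lists include them. Both siRNA comparisons share the NTC samples. The alternatives were edgeR's quasi-likelihood test, DESeq2 1.42.0, sample weights, other scalings, filters and units, a replicate block and each sample left out.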

Additional observations from a re-analysis of the deposited data

Results flagged for a closer look

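No sample of the 8 kinase genes stood apart within its group of 4. Of 93 groups of 4 examined over the named genes, 6 had a sample far from the other 3 by Dixon's test, which chance gives in about 1 of 20 groups. In NTC replicate 4, ITGB1 was at 369 CPM (348 to 351 in the others), PRKCA at 16.5 CPM (14.6 to 14.8) and PTK2B at 28.5 CPM (23.5 to 24.1). In siCEACAM6#2 replicate 1, PIK3CB was at 49.1 CPM (56.9 to 57.6) and TNS4 at 18.1 CPM (22.9 to 23.8). In siCEACAM6#3 replicate 4, LIMS1, the PINCH protein that binds ILK, was at 76.2 CPM (92.1 to 94.2).

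There were 5 named genes that differed between the siRNAs in the limma-voom test of the difference itself (siCEACAM6#3 minus siCEACAM6#2, log2). MAPK9 differed by 0.40, CEACAM6 by 0.35, THEM4 by 0.34 and RSU1 by 0.26. TRIB3 differed by -0.37. None of the 8 kinase genes was among them.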

How the results depend on the processing

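The 8 kinase genes were called in 0 of 760 comparisons of a member under an alternative, and all these values stayed within the 95% interval of the reported fit. They ran from -0.12 to 0.16 on the log2 scale, the lowest adjusted p was 0.154 (AKT1 with siCEACAM6#3, voom with sample quality weights), and 68 had the other sign. Counts of called pathway genes did change. With siCEACAM6#2 (2 reported) they were 4 in DESeq2, 8 with sample weights and 6 with only the groups compared. They were 0 on log2(TPM + 1) and log2(TPM + 0.1). Calls over all genes changed as well. For siCEACAM6#2 these were 221 of 17620 as reported, 518 of 14290 in DESeq2 and 1120 of 17620 with sample weights. With only the groups compared they were 600 of 17170, and on the 2 TPM scales 5 and 6. Pathway calls with siCEACAM6#3 (0 reported) were 4 in DESeq2 and 6 with sample weights. In the average of both siRNAs (0 reported) they were 5 in DESeq2, 6 with sample weights and 1 with library size only. Over all genes, siCEACAM6#3 had 12 calls as reported, 217 of 11983 in DESeq2 and 382 with sample weights. The average had 40 as reported, 337 of 12752 in DESeq2, 899 with sample weights and 53 with library size only. Between the siRNAs (5 reported) the pathway calls were 9 with sample weights, 2 with library size only and 3 with no filter. They were 1 on both TPM scales and with only the groups compared. All genes had 259 calls between the siRNAs as reported, 560 with sample weights, 224 with library size only and 211 of 39672 with no filter. The TPM scales gave 49 and 53, and only the groups compared gave 57 of 17129. Leaving out 1 sample gave between 1 and 4 pathway calls for siCEACAM6#2 and between 0 and 3 for siCEACAM6#3. It gave between 0 and 4 for the average, and between 1 and 7 for the difference of the siRNAs. The highest and lowest of these were reached without siCEACAM6#3 replicate 2 (4) and without any 1 of NTC replicates 1 and 2 and siCEACAM6#2 replicates 2 and 3 (1) for siCEACAM6#2, and without siCEACAM6#2 replicate 4 (1) between the siRNAs. With 1 sample left out, calls over all genes ran from 49 to 364 for siCEACAM6#2 and from 2 to 258 for siCEACAM6#3. They ran from 3 to 204 for the average and from 83 to 651 for the difference. The cause of these changes in number was not tested.

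NEDD9 passed with siCEACAM6#2 in 8 alternatives, DESeq2 and the replicate block among them. The CEACAM6 call with siCEACAM6#3 was kept in 20 of 24. Samples with the same replicate number deviated together with r from -0.14 to 0.25, over 0.1 in 2 of 12 pairs. The reported fit did not pair the samples by number. With a replicate block, 0 members were called. The pathway counts were 3 and 0 for the siRNAs in turn, 2 for their average and 6 for their difference. Over all genes the block gave 284 calls with siCEACAM6#2 and 87 with siCEACAM6#3, against 221 and 12 as reported. It gave 118 for the average and 349 for the difference, against 40 and 259. A pairing by replicate number is therefore not excluded. The AKT1 to AKT2 difference of TPM ratios with siCEACAM6#3 was -0.25 to -0.17 with 1 sample left out. No family ratio passed after adjustment in any alternative, but such a pass was barely possible. In the exact permutation test, 3 samples against 4 give p of at least 0.0571. With 4 against 4, a single ratio at the smallest p of 0.0286 is adjusted to 0.257. The lack of a pass is therefore not a result about the ratios. The members had 604 to 4636 counts per sample, and the parts of counting error and of replicate spread in their intervals were not separated.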
